A study of Oryza sativa Japonica Group and Oryza sativa Indica Group with 20 samples.

Results

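Rice is grown as 2 main subspecies, japonica and indica, and a cultivar of one can lack a gene that the other carries, carry it in a diverged form, or carry it without transcribing it. An RNA-seq table on a single reference genome records all of these in the same way, as a locus with a value in one cultivar and next to none in the other. The loci described here were such a set: 231 of the 54170 deposited loci were detected at every stage of the japonica cultivar Tainung 67 (TNG67) and at no stage of the indica cultivar IR64. They were chosen by their FPKM (fragments per kilobase of gene, scaled to the mapped total of the library), at least 1 in all 5 TNG67 libraries and under 0.1 in all 5 IR64 libraries. The cultivar difference is therefore the rule itself and is given as a description, with no test. Of the 16154 loci at 1 FPKM or more in all 5 TNG67 libraries, the 231 made up 1.43%.

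The series followed rice tissue culture from the embryo to callus, a mass of dividing and largely unorganised cells, and on to regeneration. Each cultivar gave 5 RNA libraries: the embryo (T0), callus induced (T1) and then subcultured (T2) under the synthetic auxin 2,4-D at 2.5 mg/L, and calli that regenerated (TS) or failed to do so (TF) after transfer to a cytokinin, BAP, at 2 mg/L, with the auxin NAA at 0.02 mg/L. Each cultivar and stage had 1 library, and the labels do not say how many embryos or cultures stood behind it. Reads of both cultivars were aligned to a japonica reference, IRGSP-1.0, allowing up to 2 mismatches and keeping uniquely placed reads alone, so absence of a gene, loss of reads to sequence differences and absence of its RNA cannot be told apart. The identifiers are not paired with names in the sources used here, so loci carry their identifier and the chromosome read from it, and the embryo and callus labels were not checked against marker genes.

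**Figure D1:**
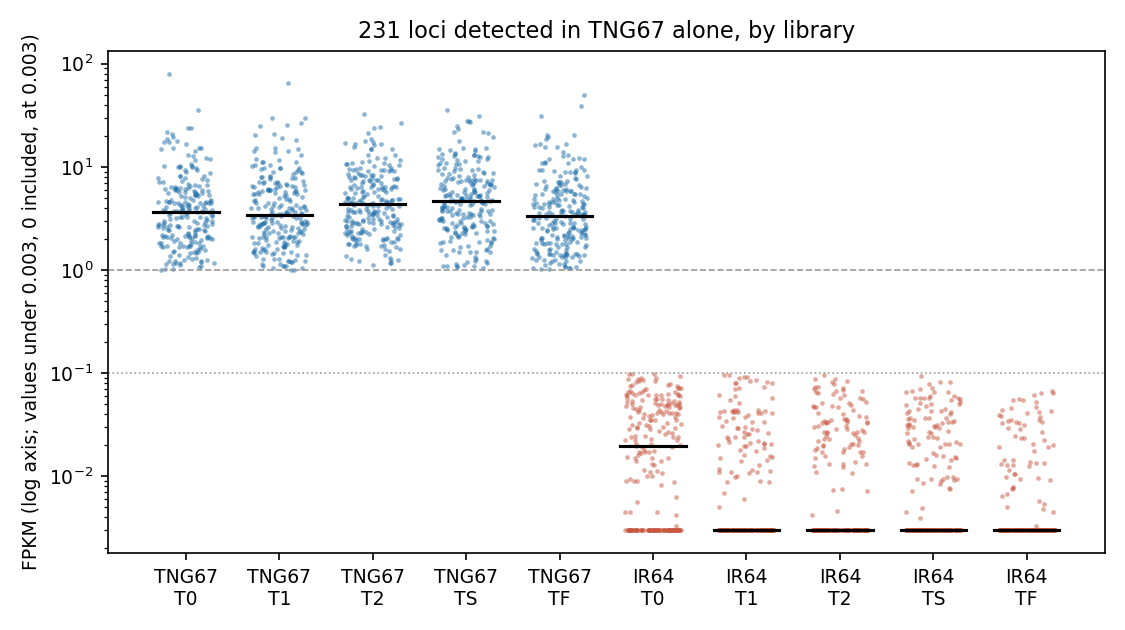
FPKM of the 231 loci in each of the 10 libraries on a log axis, 1 point per locus, with the median as a black bar; dashed and dotted lines mark 1 and 0.1 FPKM, and values under 0.003 are drawn at 0.003. The TNG67 medians lie between 3.36 and 4.63 FPKM, and the IR64 embryo is the only IR64 library whose median is above 0.

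On these loci the IR64 embryo library stood apart. Leaving the IR64 embryo out of the rule raised the count from 231 to 353, adding 122 loci, whereas leaving out any other IR64 library added 8 to 19. Of the TNG67 libraries, the embryo excluded 58 loci by itself, TF 27, T1 19, and T2 and TS 3 each. The same rule with the cultivars exchanged found 65 loci in IR64 alone, 0.399% of the 16305 loci at 1 FPKM or more in all 5 IR64 libraries. For that list it was TNG67 TF that excluded most, with 43 loci against 1 to 11 for the other TNG67 libraries. The 43 were at 0.110 to 9.51 FPKM in TNG67 TF, 20 of them at 1 or more, and at a median of 16.1% of their IR64 TF value. They were picked for a value of at least 0.1 FPKM in that library and less in the other 4, so these values are a description. Even without TNG67 TF in its rule, the IR64 list had 108 loci. Where a count or share below rests on the IR64 embryo or on TNG67 TF, it is given again for the 353 loci of the rule without the former or the 258 of the rule without the latter.

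**Figure D2:**
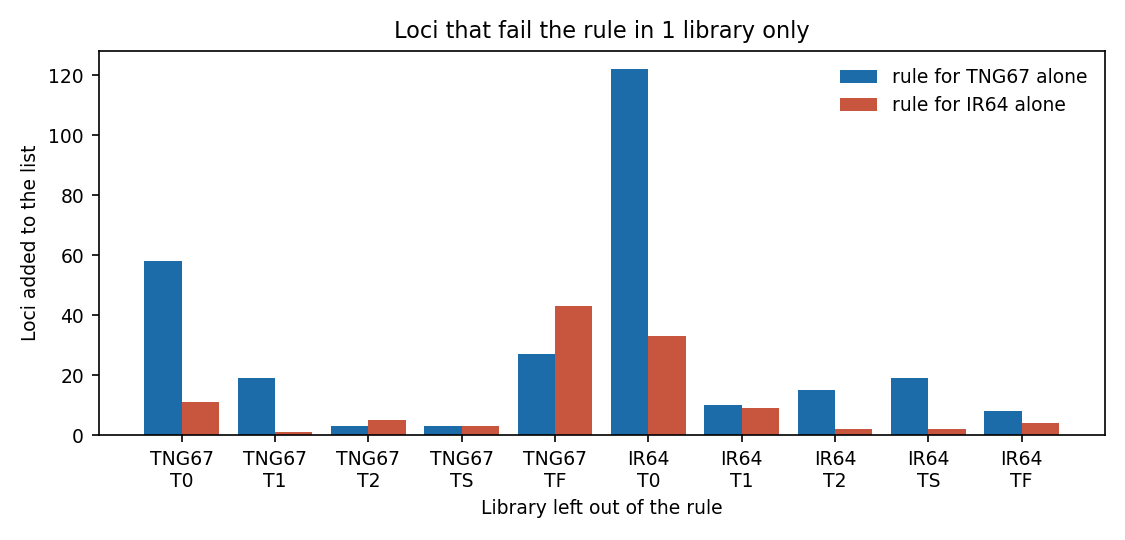
Number of loci added to each list when 1 library is left out of its rule, for the TNG67 list (blue) and the IR64 list (red). The IR64 embryo adds 122 loci to the TNG67 list and TNG67 TF adds 43 to the IR64 list; these are the highest bars of each colour.

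In IR64 the 231 loci were low rather than uniformly at 0. Only 52 were listed at 0 in all 5 IR64 libraries, and 179 had a value above 0 in at least 1, with 26 above 0 in all 5. The IR64 embryo held such a value at 154 loci (66.7%), with a median of 0.0401 FPKM among them. IR64 T1 did so at 87, T2 at 94, TS at 99 and TF at 64 loci. Over all deposited loci under 0.1 FPKM in the same library, 13.2% were above 0 in the IR64 embryo and 7.69 to 9.52% in the IR64 calli. Among the 179, the lowest TNG67 value was 10.6 to 712 times the highest IR64 value, with a median of 49.2. No fold is given for the other 52.

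Many of the values above 0 in the IR64 embryo lay near a fixed share of those in the TNG67 embryo. Over the 353 loci of the rule without that library, the IR64 embryo value correlated across loci with the TNG67 embryo at a Spearman rho of 0.60, and with the 4 TNG67 calli at 0.24 to 0.34. The points share gene length and library depth, loci are not replicates, and many IR64 values are 0, so the coefficients are descriptive and have no p-value. At the 114 loci with at least 10 FPKM in the TNG67 embryo, the IR64 embryo stood at a median of 0.997% of the TNG67 value, with quartiles of 0.574 and 1.26%, and 83 of the 114 lay between 0.5 and 2%. The IR64 embryo was above 0 at 96 of the 114. The others were listed at 0 there, among them LOC_Os03g60419 and LOC_Os12g11790, at 80.1 and 35.7 FPKM in the TNG67 embryo. The rule for the 353 kept the IR64 calli under 0.1 FPKM and left the embryo free, so each IR64 callus was also left out of the rule for its own stage. At the loci with at least 10 FPKM in the TNG67 callus of that stage, the median was then 0.155% at T1 (31 loci) and 0% at T2 (36), TS (49) and TF (25), with 3 to 8 loci a stage between 0.5 and 2%. These shorter lists kept the IR64 embryo under 0.1 FPKM, so the loci differ from the 114, and the difference between stages was not tested.

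LOC_Os11g38220 on chromosome 11 stood at 281.4 FPKM in the TNG67 embryo and 2.88 in the IR64 embryo, or 1.02%, with 1.36 to 7.18 in the TNG67 calli and a listed 0 in the IR64 calli. LOC_Os05g16054 on chromosome 5 stood at 281.7 and 2.80 FPKM in the embryos, or 0.993%, and LOC_Os01g06740 on chromosome 1 at 160.8 and 1.35, or 0.842%. These loci missed the list through the IR64 embryo value alone, and were picked here with those values known. LOC_Os12g14830 on chromosome 12 showed another pattern, at 2.87 FPKM in the TNG67 embryo and 1.01 in the IR64 embryo, or 35.2%. Whether the IR64 embryo values are transcripts of IR64 itself was not tested.

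**Figure D3:**
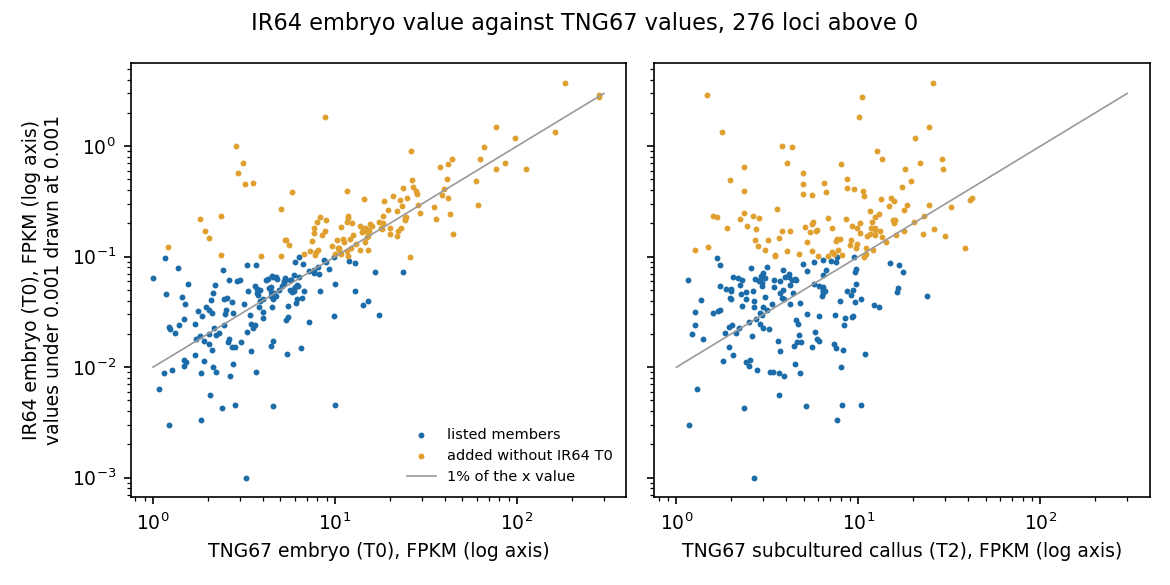
IR64 embryo FPKM against TNG67 embryo FPKM (left) and TNG67 T2 callus FPKM (right), both axes logarithmic, for the 276 loci above 0 in the IR64 embryo among the 353 of the rule without that library; blue points are among the 231, orange points are the 122 added, and 1 value under 0.001 is drawn at 0.001. The grey line marks 1% of the horizontal value. Points scatter about it in both panels, more widely for T2. Over the 353 loci the Spearman rho was 0.60 with the TNG67 embryo and 0.26 with T2.

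Because a locus had to stay under 0.1 FPKM in the IR64 embryo, the rule removed loci that were abundant in the TNG67 embryo. Of the 52 loci of the wider list at 20 FPKM or more in the TNG67 embryo, 6 were among the 231, against 106 of the 115 at 2 to 5 FPKM. The 122 added loci had a median of 14.8 FPKM in the TNG67 embryo and 9.47 over the T1, T2 and TS calli, and the 231 had medians of 3.67 and 4.16. The embryo held the highest TNG67 value at 75 of the 122 (61.5%) and at 67 of the 231 (29.0%).

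Within TNG67 the 231 were loci of low to moderate level. The mean over the 5 libraries had a median of 3.84 FPKM with quartiles of 2.62 and 6.77, against 13.4 FPKM for the other 15923 loci detected throughout TNG67. At 141 loci the mean was under 5 FPKM, at 27 it was 10 or more and at 6 it was 20 or more. Together the 231 took up 0.117% of the summed FPKM of the TNG67 embryo and 0.162 to 0.213% of that of the calli. Their own sum was 1247 FPKM in the embryo, within the 1150 to 1455 of the calli. The total over all loci was 1063010 in the embryo and 625780 to 710922 in the calli. The share of detected loci that belonged to the list was 8.95% at a mean of 1 to 2 FPKM, 4.17% at 2 to 5, 1.78% at 5 to 10, 0.550% at 10 to 20 and 0.177% at 20 to 50, and none of the 2383 loci at 50 or more belonged. Without the IR64 embryo in the rule the same shares were 9.58, 4.83, 2.72, 1.68 and 0.854%, with 3 of the 2383. The level is part of the rule, so this order is a description. In the IR64 list 3 of the 2146 loci at 50 FPKM or more belonged.

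The highest of the 231 was LOC_Os03g60419 on chromosome 3, at 80.1 FPKM in the embryo, 65.1 at T1, 17.7 at T2, 35.8 at TS and 38.9 at TF, and listed at 0 in every IR64 library. Its embryo and T1 values were the high ones and T2 the low one. LOC_Os03g30840 on the same chromosome was steadier, at 19.6, 29.4, 32.7, 25.1 and 30.9 FPKM in the same order, and also at a listed 0 throughout IR64. LOC_Os10g03820 on chromosome 10 was at 14.8, 8.61, 17.0, 23.5 and 49.4 FPKM, with TF above the other 4 libraries. LOC_Os04g03760 on chromosome 4 had TF below the other 4 libraries, at 21.7, 25.2, 24.1 and 21.6 FPKM from the embryo to TS and 8.93 at TF. It was above 0 in IR64 at T1 alone, at 0.0857 FPKM. LOC_Os08g13795 was at 18.7, 9.77, 21.4, 31.2 and 20.2 FPKM. LOC_Os08g18894, on chromosome 8 as well, was at 11.6, 26.5, 18.7, 27.5 and 16.5 FPKM. Both were listed at 0 in all IR64 libraries.

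At the edges of the rule the values ran on without a gap. LOC_Os07g23030, at 1.002 FPKM in its lowest TNG67 library, and LOC_Os04g14204, at 1.003, were just inside, and LOC_Os11g29520 at 0.999 and LOC_Os01g50970 at 0.997 just outside. On the IR64 side LOC_Os01g73656 reached 0.0990 FPKM and LOC_Os03g45790 0.0984, both inside, while LOC_Os04g52606 reached 0.10001 and LOC_Os03g44190 0.1002 and were left out.

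The position of the loci was not part of the rule. The identifiers placed 29 of the 231 on chromosome 12, 24 on chromosome 8 and 22 on chromosome 11. Relative to the loci detected throughout TNG67 these were 3.38, 2.26 and 2.83%, and the other 9 chromosomes lay between 0.876% (chromosome 3) and 1.75% (chromosome 10). Chromosomes 8, 11 and 12 together held 32.5% of the 231, against 16.5% of the other 15923 loci and 18.5% of those under 10 FPKM. Their joint share was 31.7% without the IR64 embryo in the rule, 32.6% without TNG67 TF, 31.1% for loci on a single deposited row and 32.7% for the 52 listed at 0 throughout IR64, where chromosome 11 had 1 locus and chromosome 12 had 10. In the IR64 list the 3 chromosomes held 13 of 65 loci (20.0%), and chromosome 10 had the highest share of detected loci, 0.868%. The 3 chromosomes were singled out after the counts were seen, and neither the difference from other loci nor that from the IR64 list was tested.

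**Figure D4:**
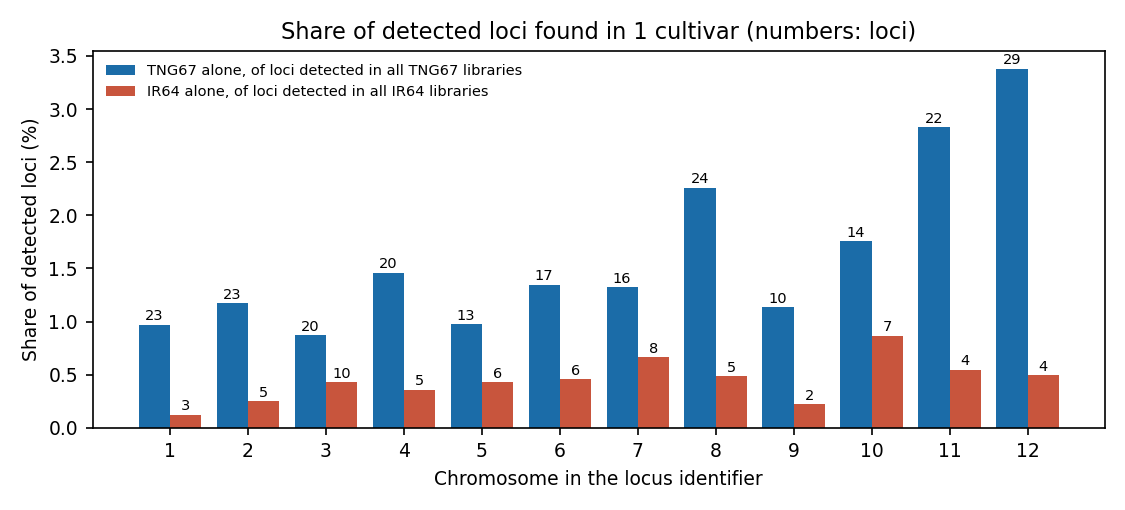
Share of the loci detected throughout a cultivar that were detected in that cultivar alone, by the chromosome in the identifier, for TNG67 (blue) and IR64 (red), with the number of loci above each bar. Chromosomes 12, 11 and 8 carry the highest TNG67 shares, at 3.38, 2.83 and 2.26%.

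Some of the loci were neighbours. In the order of deposited identifiers, 36 of the 231 lay within 5 places of another, in 17 runs of which the longest held 3 loci. Of the 353 loci without the IR64 embryo in the rule 74 did so, and of the 258 without TNG67 TF 42, in lists that are longer and so more densely spaced. The share was 15.6% of the 231, 9.23% of the IR64 list (6 of 65) and 96.4% of the 16154 loci detected throughout TNG67. These lists differ in length, so their shares cannot be compared directly, and no test was run. In 1 of the 17 runs the identifiers differ by 522, so that pair need not be adjacent on the chromosome. The run on chromosome 10 comprised LOC_Os10g26950, at 3.20 to 5.71 FPKM in TNG67, LOC_Os10g26960, at 2.49 to 4.59, and LOC_Os10g27000, at 2.29 to 15.1. LOC_Os10g26990, which lies next to LOC_Os10g27000, was detected in every library, with values from 18.5 to 28.8 FPKM over the TNG67 stages and from 14.1 to 28.1 over those of IR64. The run on chromosome 11 comprised LOC_Os11g40340, LOC_Os11g40370 and LOC_Os11g40380. Its loci did not share a profile: LOC_Os11g40340 had its highest value at T1 (29.7 FPKM), LOC_Os11g40370 at TF (15.7 FPKM) and LOC_Os11g40380 at TS (2.54 FPKM).

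Numbers in rice locus identifiers were first assigned in steps that left a final 0, and models added later took numbers between them. Of the 231, 42 (18.2%) had an identifier that does not end in 0, against 7.72% of the other 15923 loci detected throughout TNG67 and 9.23% of the IR64 list. The share was 18.9% for the 90 loci at a mean of 5 FPKM or more and 17.7% for the 141 below it, 21.2% without the IR64 embryo in the rule, 16.3% without TNG67 TF, and 15.4% for the 52 listed at 0 throughout IR64. This property was looked at after high-ranking identifiers of that form had been seen, and the difference was not tested.

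Stages within TNG67 were compared on values the rule did not contrast, although it required 1 FPKM at each of them. The highest of the 5 TNG67 values was under 2 times the lowest at 71 loci (30.7%) and at least 4 times at 45 (19.5%), against 35.9 and 25.5% of the other detected loci. The minimum of 1 FPKM limits this ratio more in the 231, at a median level of 3.84 FPKM, than in the others, at 13.4. Shares at a matched level were not computed, so neither difference is read as a trait of the list. The shares were 27.5 and 27.2% of the 353 without the IR64 embryo in the rule, and 27.9 and 24.8% of the 258 without TNG67 TF. The embryo and TS held the highest value at 67 loci each (29.0%), against 43.4 and 16.1% of the other loci. Under 10 FPKM, the level of 204 of the 231, TS held it at 28.4% and the embryo at 29.9%, against 17.5 and 35.1% of 6351 other loci. Without the IR64 embryo in the rule the embryo held it at 40.2% and TS at 28.6%. The lowest value was at TF for 71 loci (30.7%, against 22.6% of the other loci), in the embryo for 70 (30.3 against 32.6%), at T1 for 60 (26.0 against 24.7%), at TS for 19 (8.23 against 8.13%) and at T2 for 11 (4.76 against 11.9%, or 7.89% of those under 10 FPKM). Of the 353, TF held it at 37.1% and the embryo at 24.1%. Of the 258, TF held it at 38.0%, which includes the 27 added for being under 1 FPKM there.

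Callus and embryo were compared in TNG67 by limma on log2(FPKM + 1), with T1, T2 and TS taken as one class. Of the 231 loci, 20 were higher and 14 lower in callus at an adjusted p under 0.05. Of the other detected loci 8.51% were higher and 15.4% lower, and of all 22913 loci tested 10.8 and 15.4%. The median log2 change was 0.11 over the 231 and -0.13 over the other detected loci, but -0.01 and 0.05 after quantile normalization, where 9 of the 231 were higher and 13 lower. Of the other 15923 detected loci, 1382 were then higher and 1252 lower, against 1355 and 2447 before it. The balance of the list also depended on the IR64 embryo: without that library in the rule 24 of the 353 were higher and 37 lower in callus, with a median of -0.11.

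LOC_Os11g40340 on chromosome 11 was at 2.20 FPKM in the TNG67 embryo and at 29.7, 26.4 and 14.9 in T1, T2 and TS, with 8.95 in TF. Every callus was above the embryo, and the locus rose by 2.89 on the log2 scale, with an SE of 0.47 and a limma adjusted p of 0.034. LOC_Os05g35780 on chromosome 5 was at 2.33 FPKM in the embryo, 24.97, 14.8 and 26.9 in the calli and 19.3 in TF, a log2 rise of 2.76 with an SE of 0.42 and a limma adjusted p of 0.031. In the other direction LOC_Os12g11790 on chromosome 12 was at 35.7 FPKM in the embryo, 2.71, 4.67 and 5.996 in the calli and 4.94 in TF, or -2.80 on the log2 scale with an SE of 0.45 and a limma adjusted p of 0.033. LOC_Os05g33670 on chromosome 5 was at 24.0 FPKM in the embryo and 3.68, 9.26 and 1.67 in the calli. Its change of -2.31 (SE 0.87) did not pass, with an adjusted p of 0.13 in limma.

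The spread in this test is that between 3 callus stages, each of 1 library, with 2 residual degrees of freedom, so it does not measure the spread between cultures. All 34 calls were lost when T1, T2 or TS was left out, which leaves 1 residual degree of freedom. Of all 22913 loci tested, 0 were called without T2 or without TS, and 337 were higher and 817 lower without T1. LOC_Os11g40340 had limma adjusted p of 0.066, 0.15 and 0.052 without T1, T2 and TS. In the same order LOC_Os05g35780 had 0.069, 0.13 and 0.069, and LOC_Os12g11790 0.05, 0.15 and 0.059.

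**Figure D5:**
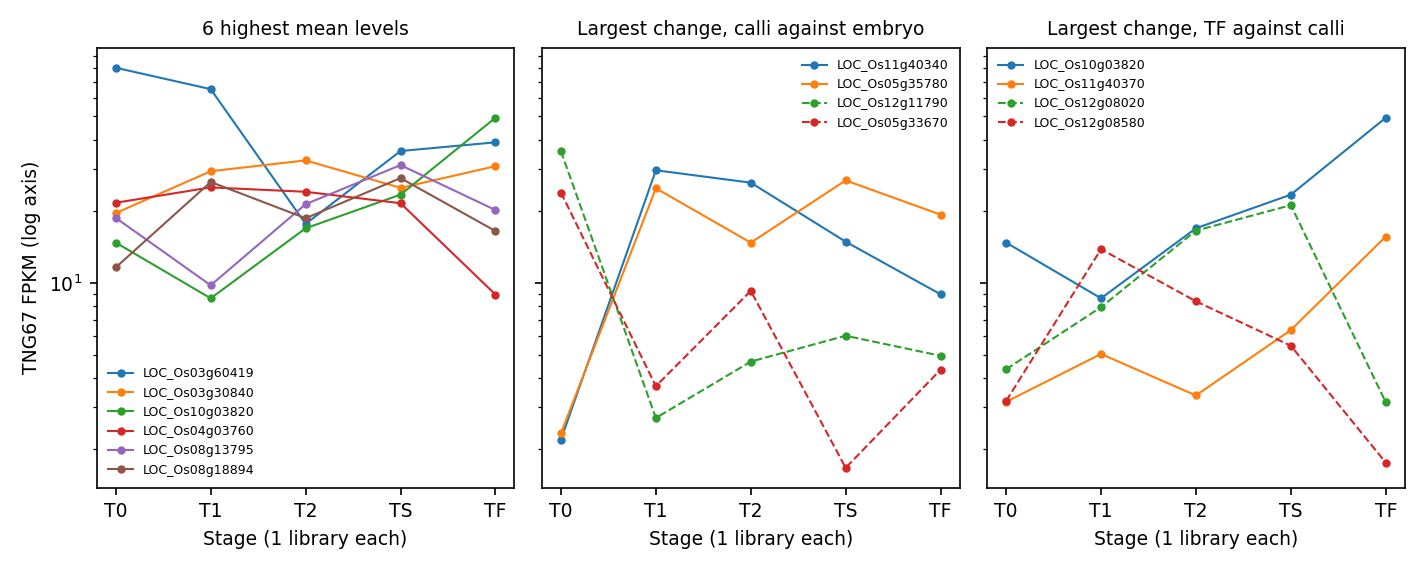
TNG67 FPKM by stage on a log axis, 1 library per point, for the 6 loci with the highest mean (left), the loci with the largest changes between embryo and calli (middle) and those with the largest differences between TF and the other calli (right); dashed lines mark loci lower in the later class. LOC_Os11g40340 and LOC_Os05g35780 lie at 2.20 and 2.33 FPKM in the embryo and at 8.95 FPKM or more in every callus.

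From one library to the next, few of the loci differed by 4-fold on the (FPKM + 1) scale, which understates changes at these low levels. Between T1 and T0, 6 were at least 4-fold higher and 4 lower, against 4.15 and 9.83% of the other detected loci. Under 10 FPKM the counts were 3 and 3 of 204, against 2.03 and 4.14%. The low count of loci higher in the embryo rested on the IR64 embryo: of the 353 without it in the rule, 8 were at least 4-fold higher in T1 and 25 lower (2.27 and 7.08%), and at 2-fold 37 and 85 (10.5 and 24.1%). None differed by 4-fold between T2 and T1 (0.371% of the other loci in each direction) or between TS and T2 (0.151 and 0.0879%). Of the 6351 other loci under 10 FPKM, 0.110 and 0.142% did so between T2 and T1, and 0.0315 and 0% between TS and T2. With shares this small, and a minimum of 1 FPKM that limits changes at low levels, the 0 counts do not show that the list was steadier. At 2-fold, 31 were higher and 32 lower in T1 than in T0 (15.2 and 25.4% of the other loci), 9 and 2 in T2 than in T1 (3.28 and 2.59%), and 3 and 4 in TS than in T2 (2.44 and 1.35%). Across loci, log2 values correlated at 0.45 between T1 and T0, 0.87 between T2 and T1 and 0.90 between TS and T2. The other loci, with their wider range of levels, had 0.69, 0.95 and 0.96. Under 10 FPKM the order was reversed, at 0.26, 0.81 and 0.85 for 204 of the 231 and 0.19, 0.79 and 0.84 for 6351 other loci. All of these are descriptive, over loci that share libraries and gene lengths.

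Values in failed callus tended to lie below those of the other calli. T1 and T2 were on 2,4-D, and TS and TF on BAP and NAA, so only TF against TS shares a medium. In the mean of T1, T2 and TS, the comparison with T2 and the limma contrast, failure and medium cannot be told apart. TF was below the mean of T1, T2 and TS at 163 of the 231 loci (70.6%) and at 58.7% of the other detected loci, with a median ratio of 0.838 against 0.932. The other loci under 20 FPKM had 0.913. The ratios were 0.859 and 0.952 with median-ratio scaling, 0.786 and 0.916 after quantile normalization, and 0.780 for the 353 loci without the IR64 embryo in the rule. For the 258 without TNG67 TF in the rule the ratio was 0.759, with the 27 added loci low in TF by their choice. In IR64 the 65 loci detected there alone had a median TF ratio of 0.784, against 0.913 for the other IR64 loci. Compared with TS, 26 of the 231 were at least 2-fold lower in TF and 5 higher, against 4.55 and 4.94% of the other loci. Compared with T2 the counts were 20 lower and 4 higher, against 3.95 and 6.19%. At 4-fold, 2 were lower than in T2 (0.232%) and 1 lower than in TS (0.44%), with 0 higher in each (1.51 and 1.28%). Under 10 FPKM, 1 of 204 was 4-fold lower than in T2 and 0 than in TS, with 0 higher in each. Of 6351 other loci under 10 FPKM, 0.0472 and 0.110% were lower and 1.05 and 1.12% higher. At 2-fold against TS, 62 of the 353 were lower in TF and 7 higher, and 38 and 5 of the 258. Against T2 the counts were 40 and 6 of the 353, and 28 and 4 of the 258. TNG67 TF was also the library that held loci of the IR64 list, and the part of that in these ratios was not tested.

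limma called 0 of the 231 between TF and the class of T1, T2 and TS, with 29 at an unadjusted p under 0.05 and a lowest adjusted p of 0.09; no other tool was run. Of the other detected loci it called 0.1% higher and 0.00628% lower in TF, and of all loci tested 1.53 and 0.0175%. On simulated data of 22913 loci with 50 changed at each size, this contrast recovered 12 of 50 loci changed by 4-fold, 29 by 8-fold and 42 by 16-fold, so the 0 calls do not exclude changes of these sizes. LOC_Os10g03820, at 8.61 to 23.5 FPKM in the other calli and 49.4 in TF, differed by 1.64 on the log2 scale, with an SE of 0.62 and a limma adjusted p of 0.36. LOC_Os11g40370, at 3.36 to 6.33 and 15.7 FPKM, differed by 1.53, with an SE of 0.38 and a limma adjusted p of 0.23. On the low side LOC_Os12g08020 on chromosome 12 was at 7.90 to 21.2 FPKM in the other calli and 3.15 in TF, or -1.87 with an SE of 0.63 and a limma adjusted p of 0.32. LOC_Os12g08580 on the same chromosome was at 5.44 to 13.8 and 1.76 FPKM, or -1.81 with an SE of 0.56 and a limma adjusted p of 0.29. In these 4 loci the TF value lay outside the range of the other calli. They were picked for the largest differences between TF and those calli, so this follows from the choice and is no evidence of a change.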

How the data were processed

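RNA was measured in 10 libraries; the 10 bisulfite libraries were not analysed here. Per the labels' protocols, FastQC was used for read quality, Bowtie for alignment to IRGSP-1.0 (up to 2 mismatches, unique alignments retained) and TopHat for the FPKM per gene that the authors deposited. The sources used here give no tool version, gene model or strand setting, and for the TNG67 T1 library the labels repeat the DNA protocol. Summing repeated rows (968 loci, 25 of them among the 231) reduced 55166 deposited rows to 54170 loci. Depth is unknown, since no counts were given. Summed FPKM per library was 602209 to 1063010, and 3792960 in the IR64 embryo. A value of 0 can be a failed estimate. None of the identifiers matched the RefSeq table (assembly ASM3414082v1).

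The members and comparisons were chosen with earlier results of these data known. limma 3.58.1 in R 4.3.3 was fitted to log2(FPKM + 1) of the 5 TNG67 libraries in 3 classes (embryo; T1, T2 and TS; TF), with an intensity trend, on the 22913 loci that reached 1 FPKM in 2 or more of the 10 libraries, and p-values were adjusted over all of them (Benjamini-Hochberg). On simulated data the embryo contrast recovered 3 of 50 loci changed by 4-fold, 29 by 8-fold and 38 by 16-fold, all of them rises in callus at loci above a minimum level. Far fewer loci were changed there than the 2472 higher and 3533 lower that this contrast called in the real data. The adjustment depends on that number, so these recoveries do not give the power of the real embryo contrast. Named loci are the 6 with the highest TNG67 mean, the 2 largest changes each way per contrast (those past the test and 4-fold first), the longest runs and the loci next to each threshold; others are said to be singled out. The 10 FPKM limit, the changed rules of membership and the identifier endings were added after the data were seen. Other calculations used Python 3.11.15, pandas 2.3.3, numpy 2.4.6 and matplotlib 3.10.9.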

Additional observations from a re-analysis of the deposited data

How the results depend on the processing

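The number of loci followed the thresholds, 358, 130 and 28 at a TNG67 minimum of 0.5, 2 and 5 FPKM and 52, 144 and 544 at an IR64 maximum of exactly 0, 0.05 and 0.5 FPKM. Leaving 1 library out of the rule gave 234 to 353 loci, the last without the IR64 embryo. The IR64 list of 65 became 105 at a minimum of 0.5 FPKM, 152 at a TNG67 maximum of 0.5 FPKM and 25 at exactly 0, and 66 to 108 with 1 library left out (98 without the IR64 embryo, 108 without TNG67 TF). The TNG67 list was the longer one in each of these paired settings.

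For calli against the embryo, the 20 higher loci became 5 without a filter and 9 after quantile normalization. The 14 lower became 7 at a pseudocount of 0.1 and 2 without a filter, and were 37 of the 353 without the IR64 embryo in the rule. At a mean of at least 5 FPKM only 90 of the 231 were tested. Of these 24 were higher and 5 lower, against 1696 and 2954 of 13041 other detected loci. Of the other 15923 detected loci, the 1355 higher and 2447 lower became 586 and 1087 without a filter. After quantile normalization they became 1382 and 1252. Leaving out a library gave 0 to 20 higher and 0 to 14 lower of the 231, with 0 for T1, T2 or TS. For TF against the calli the counts were 0 and 0 in every setting tried on the 231, with 1 lower among the 353 of the wider rule. No named change reversed in 11 or 12 settings; LOC_Os11g40340 lost its call in 6 of 12 (limma adjusted p 0.014 to 0.15), LOC_Os05g35780 in 4 (0.013 to 0.13) and LOC_Os12g11790 in 4 (0.014 to 0.15). The other 5 passed in none, with limma adjusted p of 0.079 or more.

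Loci at least 4-fold different, 10 between T1 and T0, became 18 and 3 at pseudocounts of 0.1 and 5 and 63 at 2-fold. For T2 over T1 the 0 became 2 at a pseudocount of 0.1 and 11 at 2-fold, and for TS over T2 1 and 7. For TF over T2 the 2 became 4 and 0 at the pseudocounts and 24 at 2-fold, and for TF over TS the 1 became 3, 0 and 31, and 2 after quantile normalization. Neighbours fell from 36 to 14 at 1 place. They rose to 47 at 10 places, and to 50 in the order of loci at 1 FPKM or more in any library. No paired analysis was possible because each cultivar and stage has 1 library and the members are near 0 in IR64 by the rule.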
